A study of Homo sapiens with 21 samples.

Results

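The 10 genes described here are the textbook readouts of epithelial and mesenchymal state, chosen by symbol from the 20111 genes measured. They are CDH1, EPCAM and ESRP1 on the epithelial side, CDH2 and VIM on the mesenchymal side, and ZEB1, ZEB2, SNAI1, SNAI2 and TWIST1 as the transcription factors that drive epithelial-to-mesenchymal transition (EMT). All 10 were listed in both tables of the study.

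Gene expression was profiled by mRNA sequencing in 21 libraries of PC-9 cells, 3 for each of 7 groups. PC-9 is a human lung adenocarcinoma line with an activating in-frame deletion in EGFR, and every group carries it. The genotype label reads EGFR delE746-A750 for the first parental library, and the last residue rises by 1 with each library to 770, so the exact allele of a library is not taken from it. EGFR-low and EGFR-high cells were obtained from the parental line by 6 rounds of antibody staining and sorting of the lowest and highest EGFR expressers, and are therefore sorted populations and not single clones. The untreated experiment held parental, EGFR-low and EGFR-high cells, harvested 24 h after seeding. In the vorinostat experiment, EGFR-low and EGFR-high cells received DMSO or 1 µM vorinostat (SAHA), an inhibitor of histone deacetylases, for 72 h. Values are FPKM (fragments divided by transcript length and by the size of the library), a scale per transcript length on which levels of different genes can be compared within a library. Whether the populations selected for EGFR also differ in epithelial or mesenchymal state, and whether vorinostat moves that state, are the questions that these comparisons address.

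As background, epithelial cells hold each other through E-cadherin (CDH1) and carry the adhesion molecule EPCAM. ESRP1 is a splicing factor that keeps transcripts in their epithelial isoforms. In EMT, factors of the ZEB, SNAIL and TWIST families repress CDH1 by binding E-box motifs, and cells take up N-cadherin (CDH2) and the intermediate filament vimentin (VIM). Carcinoma cells often hold only part of this program, so that epithelial and mesenchymal genes are found side by side. SNAI2 is also expressed in some epithelial cells, basal cells among them.

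EGFR, the gene sorted on, lay at 26.5 to 60.6 FPKM in untreated EGFR-low and at 161 to 269 FPKM in untreated EGFR-high libraries. In the vorinostat experiment its range was 16.1 to 43.3 FPKM in EGFR-low and 83.3 to 207 FPKM in EGFR-high libraries. The 6 epithelial identity markers (KRT7, KRT8, KRT18, KRT19, CLDN4 and MUC1) all reached 1 FPKM in both experiments, and their summed level was 1381 to 3730 FPKM. Of 8 fibroblast markers only COL1A1 reached 1 FPKM, and the list summed to at most 5.88 FPKM. The leukocyte and endothelial lists summed to at most 40.0 and 8.32 FPKM. Some of their genes moved with the population in the vorinostat experiment. KDR was 3.57 to 3.79 FPKM in EGFR-low and 0.00297 to 0.881 FPKM in EGFR-high DMSO libraries (log2 fold change 1.91), CD14 was 0.739 to 1.67 against 0.0504 to 0.600 FPKM (0.82), and both were called, whereas CDH5 and CD68 were not. Neither KDR nor CD14 reached 1 FPKM in any EGFR-high library of that experiment. Both thus passed the filter on low values, given below, only through EGFR-low libraries. A difference was part of what let them in. The part of other cell types in the results was not tested.

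Libraries of the vorinostat experiment stood apart in ways that touch the results below. The first principal component held 82.5% of the variance and placed 5 of the 6 EGFR-low libraries at 61.6 to 66.7 and 5 of the 6 EGFR-high libraries at -67.2 to -59.4. EGFR-low DMSO replicate 1 lay at 25.6 and EGFR-high DMSO replicate 3 at -26.3, between the populations. To place them, genes with a mean of at least 10 FPKM in the 2 other DMSO libraries of the higher population were used. Of these, 160 genes were at least 10-fold higher in the other EGFR-low than in the other EGFR-high DMSO libraries. Over these 160 genes, the median gene of EGFR-low DMSO replicate 1 lay 68.5% of the way on the FPKM scale from EGFR-high to EGFR-low. That of EGFR-high DMSO replicate 3 lay 25% of the way. The leukocyte marker LYZ was also highest in these libraries (7.28 and 2.76 FPKM), and at most 0.538 FPKM in the other libraries of the experiment. Over 217 genes that were at least 10-fold higher in EGFR-high, these medians were 78.3% and 26.8%. The second component set apart replicate 1 of both vorinostat groups (23.1 in EGFR-low, 47.5 in EGFR-high, all other libraries at 0.0469 or lower). Replicates 2 and 3 of the vorinostat groups lay close to the DMSO libraries of their population, and the smallest distance of all pairs was that of EGFR-low DMSO replicate 2 and EGFR-low vorinostat replicate 2, with a root mean square difference of 0.152 in log2(FPKM + 1). The 2 other EGFR-low DMSO libraries also ranked the genes less like the untreated EGFR-low libraries (Spearman's rho 0.889 to 0.904) than the EGFR-high DMSO libraries did (0.941 to 0.968). For CDH1, SNAI1 and SNAI2 the differences between the populations are given with and without these libraries, as they are under vorinostat for EPCAM and VIM. VIM in DMSO is given with all libraries and without EGFR-high DMSO replicate 3. No level was tested across the 2 experiments.

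PC-9 cells expressed the epithelial genes strongly in every group and CDH2 hardly at all, as the plot of the 10 genes by library shows. Over all 21 libraries EPCAM ranged from 171 to 434 FPKM, CDH1 from 42.2 to 138 FPKM and ESRP1 from 53.3 to 141 FPKM. CDH2 was listed at 0 in 10 libraries (5 in each experiment) and did not exceed 0.0362 FPKM. ZEB1, ZEB2 and TWIST1 stayed under 1 FPKM in every library, with highest values of 0.392, 0.502 and 0.495 FPKM. VIM, SNAI2 and SNAI1 lay between, at 1.35 to 25.6, 0.809 to 12.8 and 0.0761 to 5.99 FPKM. In each library CDH1 therefore exceeded both mesenchymal genes, and the ratio of CDH1 to VIM was lowest in EGFR-high vorinostat replicate 1 (2.76) and highest in EGFR-low replicate 1 of the untreated experiment (50.2).

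**Figure D1:**
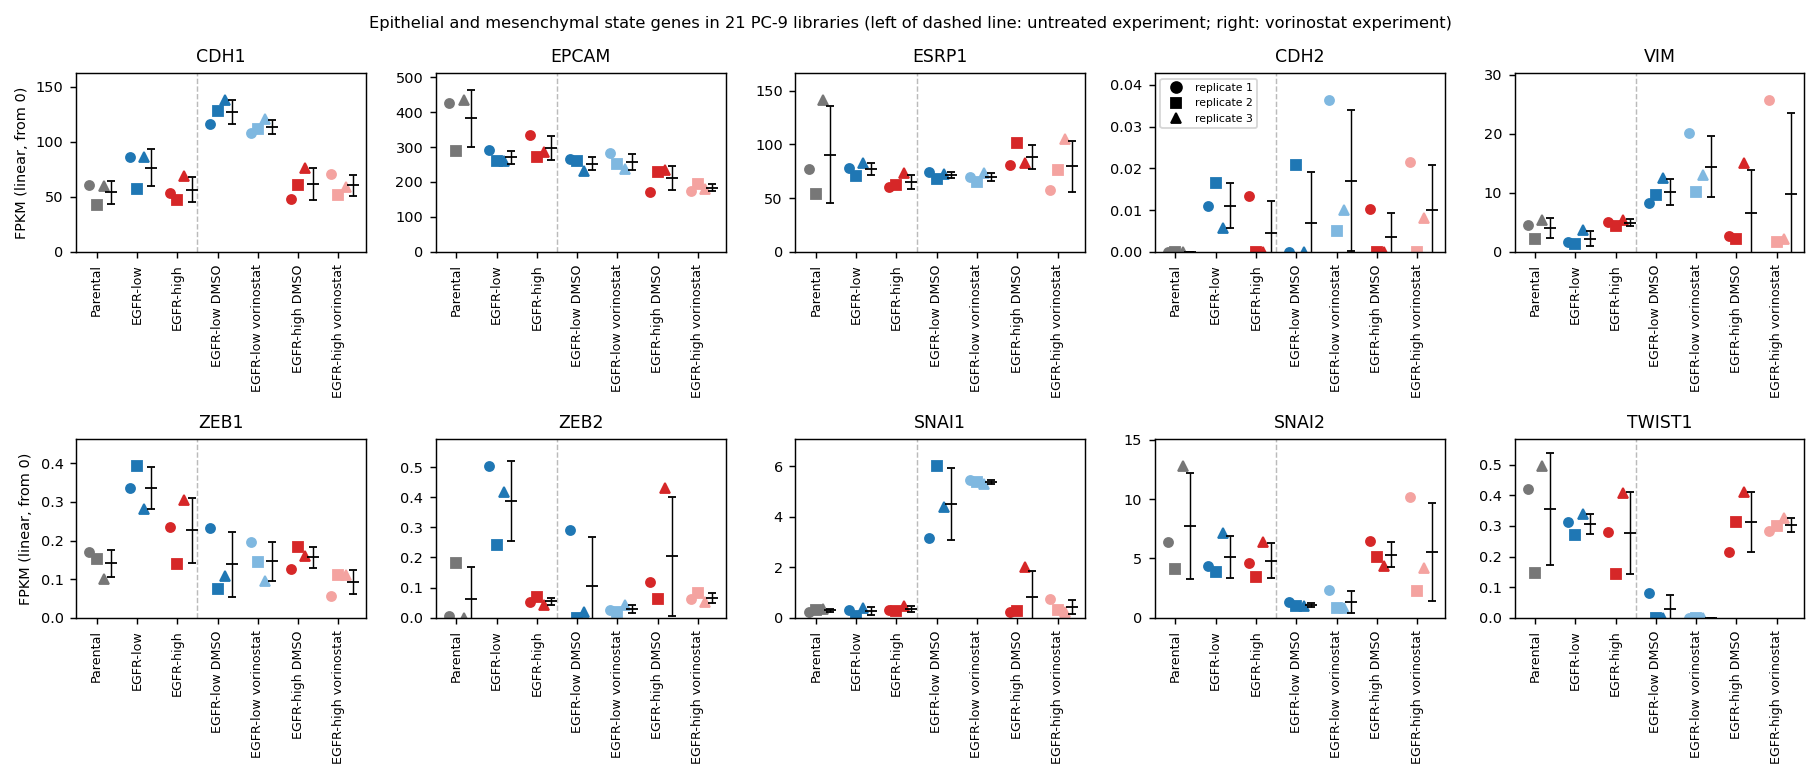
FPKM (linear axes from 0) of the 10 genes in the 21 libraries, with the 7 groups on the horizontal axes, one symbol per library (shape gives the replicate) and a black bar for the mean with its SD (n = 3, cut at 0). CDH1 in EGFR-low DMSO cells (116 to 138 FPKM) and SNAI1 in EGFR-low DMSO and vorinostat cells (3.16 to 5.99 FPKM) stand above the EGFR-high cells of the same experiment, while TWIST1 and, in DMSO, SNAI2 stand below them.

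Testing required a value of 1 FPKM or more in 3 or more libraries of the same experiment. This left 5 of the 10 genes in the untreated experiment (CDH1, EPCAM, ESRP1, VIM and SNAI2) and 6 in the vorinostat experiment, where SNAI1 also passed. SNAI1 passed through the EGFR-low libraries and EGFR-high DMSO replicate 3. The 9 SNAI2 values of at least 1 FPKM in the vorinostat experiment included all 6 EGFR-high libraries. The others were EGFR-low DMSO replicates 1 and 3 (1.29 and 1.02 FPKM) and EGFR-low vorinostat replicate 1 (2.37 FPKM). SNAI2 would thus have passed in EGFR-low libraries alone. For SNAI1, a difference between populations was part of what let the gene in. Both are described here gene by gene. The tested values are log2(FPKM + 1). For genes with values around 1 FPKM or less, the added 1 pulls the fold change towards 0, so ratios of mean FPKM are also given. A gene was called when its limma p, adjusted over all genes tested, was under 0.05.

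In untreated cells, the main fit, which did not pair libraries by number, called no member between EGFR-low and EGFR-high cells. It called 3.81% of all 11305 genes tested. A fit with a block for the replicate number called VIM and 8.54% of all genes. CDH1 was 85.8, 56.8 and 86.3 FPKM in the EGFR-low and 53.5, 46.7 and 68.8 FPKM in the EGFR-high libraries, which overlapped. Its mean was 76.3 ± 16.9 (SD, n = 3) against 56.3 ± 11.3 FPKM, a log2 fold change of 0.42 with a 95% interval of -0.18 to 1.03 (limma adjusted p = 0.604). The parental libraries held 60.5, 42.2 and 60.0 FPKM, so that the means were ordered EGFR-low, EGFR-high, parental and none of the 3 pairs was called.

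VIM was 1.71, 1.35 and 3.61 FPKM in untreated EGFR-low cells and 5.02, 4.40 and 5.44 FPKM in EGFR-high cells. All 3 EGFR-low libraries lay below all 3 EGFR-high libraries, a separation in one or the other direction that 20.6% of the genes tested showed. The log2 fold change was -0.95 (95% interval -1.64 to -0.25), and the limma adjusted p was 0.166 as fitted and 0.0336 when the fit included the replicate block, which made VIM the 1 member called in that fit. The same-numbered libraries of these groups deviated together (r of 0.343, 0.730 and 0.689 across genes), so that the number was taken to pair them. The block also paired the parental libraries. Parental replicate 3 did not deviate together with replicate 3 of EGFR-low or EGFR-high cells (r of -0.092 and -0.00229). The parental libraries (4.51, 2.19 and 5.36 FPKM) spanned much of both ranges, with a log2 fold change of -0.64 for EGFR-low over parental cells (95% interval -1.34 to 0.05, adjusted p = 0.367). The lower VIM and the higher CDH1 mean set the ratio of CDH1 to VIM at 23.9 to 50.2 in EGFR-low, 10.6 to 12.6 in EGFR-high and 11.2 to 19.3 in parental libraries.

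EPCAM, ESRP1 and SNAI2 showed smaller differences in untreated cells. EPCAM averaged 271 ± 18.3 FPKM in EGFR-low, 298 ± 34.0 in EGFR-high and 383 ± 81.6 in parental cells (SD, n = 3 each), with log2 fold changes of -0.13 for EGFR-low over EGFR-high (95% interval -0.70 to 0.44) and -0.47 for EGFR-low over parental cells (-1.04 to 0.10). ESRP1 averaged 77.1 ± 5.83, 65.1 ± 6.72 and 90.3 ± 45.3 FPKM in the same order of groups, and the wide parental value came from replicate 3 (141 FPKM, against 76.7 and 53.3 FPKM). SNAI2 averaged 5.12 ± 1.76, 4.82 ± 1.51 and 7.75 ± 4.47 FPKM, and parental replicate 3 was again the highest (12.8 FPKM). None of these was called in any of the 3 untreated comparisons, in which EGFR-low and EGFR-high cells share the parental libraries. Among all genes 1.60% were called between EGFR-low and parental cells and 0.0708% between EGFR-high and parental cells. At an unadjusted limma p under 0.05, VIM was the 1 of 5 members between EGFR-low and EGFR-high cells, and 0 of 5 passed in either comparison with parental cells. Of all 11305 genes tested, 1529 passed this threshold between EGFR-low and EGFR-high cells. Over parental cells, 1668 passed for EGFR-low and 1093 for EGFR-high cells. The member counts are therefore not read as a result about the members.

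ZEB2, a repressor of CDH1, separated the untreated populations at a very low level. Its values were 0.502, 0.240 and 0.419 FPKM in EGFR-low and 0.0520, 0.0671 and 0.0438 FPKM in EGFR-high cells, a 7.13-fold higher mean without overlap. An exact two-sided permutation test gave p = 0.1, the smallest that 3 libraries against 3 allow, and in a limma fit without the filter on low values ZEB2 was called (log2 fold change 0.39, adjusted p = 0.0442). The fit without the filter called 3.99% of its genes. The parental libraries were at 0.00513, 0.183 and 0 FPKM, all below the EGFR-low libraries. The number of fragments behind such values is unknown.

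ZEB1 was 0.282 to 0.392 FPKM in untreated EGFR-low cells, above all parental libraries (0.101 to 0.170 FPKM, exact permutation p = 0.1) but overlapping EGFR-high cells (0.139 to 0.305 FPKM, exact permutation p = 0.2). CDH2 was 0.00573 to 0.0164 FPKM in EGFR-low libraries and listed at 0 in all parental libraries. No overlap between EGFR-low and parental cells, in one or the other direction, was found for 17.1% of the genes tested. SNAI1 and TWIST1 overlapped between all 3 untreated groups, at 0.0761 to 0.471 and 0.142 to 0.495 FPKM. The SNAI1 level of the untreated EGFR-low libraries was thus no higher than that of the others (0.295, 0.0761 and 0.400 FPKM).

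In DMSO CDH1, SNAI1 and SNAI2 were called between the populations, 3 of the 6 members tested, and 51.8% of all 12236 genes tested were called. The share of members was near that of all genes, and SNAI1 had been let in partly by its difference, so the count says nothing particular about the members. CDH1 was 116, 128 and 138 FPKM in EGFR-low DMSO cells and 48.0, 60.5 and 76.4 FPKM in EGFR-high DMSO cells. All EGFR-low libraries lay above all EGFR-high libraries. No overlap, in one or the other direction, was found for 69.3% of all genes tested. The CDH1 means were 127 ± 10.8 and 61.6 ± 14.3 FPKM (SD, n = 3), a 2.07-fold ratio. The log2 fold change was 1.06 ± 0.17 (SE, limma adjusted p = 0.000462), and 1.29 without the libraries between the populations (adjusted p = 0.000217). The median gene of this comparison had a log2 fold change of 0.12, which median-of-ratios scaling brought to 0.01. CDH1 then rose by 0.93.

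SNAI1, a repressor of CDH1, was higher in the same cells, a difference that its passing of the filter already required in part. It was 3.16, 5.99 and 4.39 FPKM in EGFR-low DMSO libraries and 0.211, 0.264 and 2.02 FPKM in EGFR-high DMSO libraries. The lowest EGFR-low and the highest EGFR-high value belonged to the libraries that lay between the populations, and the groups still did not overlap. The log2 fold change was 1.69 ± 0.32 (SE, limma adjusted p = 0.00111), 2.31 without these libraries (adjusted p = 9.52e-06) and 2.84 with a pseudocount of 0.1 in place of 1. Without the filter on low values the limma adjusted p was 0.00347.

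SNAI2, the SNAI1 paralog also known as SLUG, went the other way. It was 1.29, 0.999 and 1.02 FPKM in EGFR-low DMSO cells and 6.47, 5.13 and 4.36 FPKM in EGFR-high DMSO cells, so that the EGFR-low mean was 0.207 of the EGFR-high mean. The log2 fold change was -1.58 ± 0.38 (SE, limma adjusted p = 0.0048) and -1.75 without the libraries between the populations (adjusted p = 0.0137). The SNAI1 mean of EGFR-low DMSO cells was 4.52 FPKM and the SNAI2 mean of EGFR-high DMSO cells was 5.32 FPKM, so that in each population one of these factors led the other.

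TWIST1 was listed at 0 in EGFR-low DMSO replicates 2 and 3, and at 0.0812 FPKM in replicate 1. The EGFR-high DMSO libraries held 0.214, 0.315 and 0.411 FPKM. All 3 exceeded the EGFR-low libraries (exact permutation p = 0.1), and without the filter TWIST1 was called by limma (log2 fold change -0.35, adjusted p = 0.00104). That fit called 39.0% of its genes. The 1 EGFR-low DMSO library with TWIST1 above 0 was the one that lay between the populations.

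EPCAM and ESRP1 were not called in DMSO. EPCAM was 267, 259 and 232 FPKM in EGFR-low and 171, 228 and 234 FPKM in EGFR-high libraries (log2 fold change 0.27, 95% interval -0.02 to 0.56, limma adjusted p = 0.113). It was called with quantile normalization (0.32, adjusted p = 0.0348) and moved to 0.14 with median-of-ratios scaling (adjusted p = 0.380). ESRP1 was 68.0 to 74.3 FPKM in EGFR-low and 80.8 to 101 FPKM in EGFR-high libraries, which did not overlap, with a log2 fold change of -0.29 (95% interval -0.69 to 0.10, adjusted p = 0.190) and a call under median-of-ratios scaling (-0.42, adjusted p = 0.0413).

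The size of the VIM difference in DMSO rested on 1 library. EGFR-low DMSO libraries held 8.18, 9.55 and 12.5 FPKM, and EGFR-high DMSO libraries 2.70, 2.23 and 15.0 FPKM, the last being replicate 3, which lay between the populations. The log2 fold change was 0.92 with a 95% interval of -0.81 to 2.66 (adjusted p = 0.347), which became 1.66 when EGFR-high DMSO replicate 3 was left out (adjusted p = 0.0954). In untreated cells VIM had the opposite sign. The difference between the experiments was not tested. The CDH1 to VIM ratio of EGFR-low DMSO libraries (11.0 to 14.2) lay within the EGFR-high DMSO range (5.09 to 27.1). The low end of that range was EGFR-high DMSO replicate 3. Replicates 1 and 2 had ratios of 17.7 and 27.1, above all EGFR-low DMSO libraries.

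**Figure D2:**
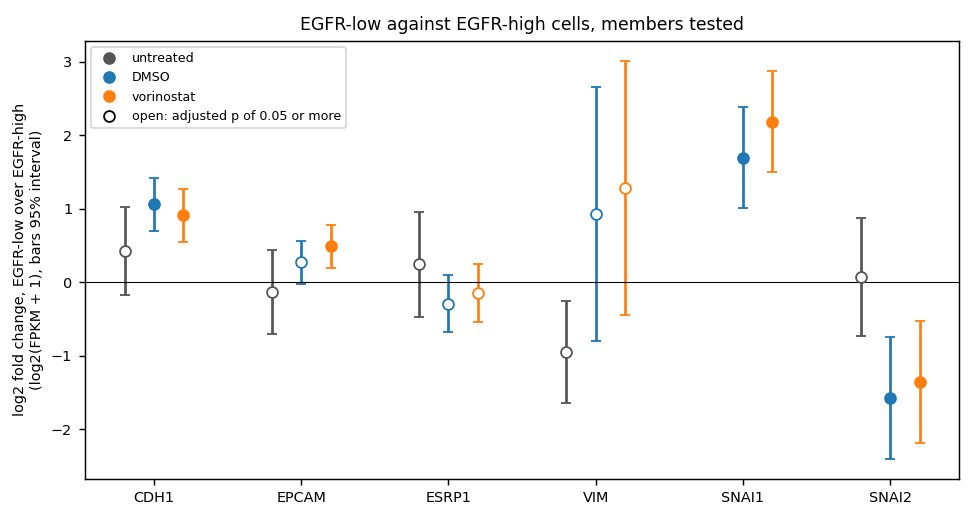
Log2 fold change of EGFR-low over EGFR-high cells on the log2(FPKM + 1) scale for the members tested, with 95% intervals from limma (3 libraries against 3), in untreated, DMSO and vorinostat cells. Filled points passed an adjusted p of 0.05. CDH1 and SNAI1 (positive) and SNAI2 (negative) are filled in both DMSO and vorinostat cells, EPCAM is filled in vorinostat cells, and no point is filled in untreated cells.

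Under vorinostat 4 of the 6 members tested were called between the populations, against 59.0% of all genes. Of the genes called, 61.3% were higher in EGFR-low cells, and 50.5% after median-of-ratios scaling, which moved the median gene from 0.16 to 0.00 on the log2 scale. CDH1 was 108, 111 and 121 FPKM in EGFR-low and 70.9, 51.7 and 58.6 FPKM in EGFR-high vorinostat cells (log2 fold change 0.91 ± 0.17 SE, limma adjusted p = 0.000631). SNAI1 was 5.46, 5.37 and 5.30 FPKM against 0.726, 0.305 and 0.234 FPKM, a 12.8-fold ratio of means with a log2 fold change of 2.18 (adjusted p = 0.000138), or 3.51 with a pseudocount of 0.1. Neither gene overlapped between the groups, nor did 60.8% of all genes tested. Without both replicates 1 the log2 fold changes were 1.06 for CDH1 (adjusted p = 0.00128) and 2.32 for SNAI1 (adjusted p = 0.0011).

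SNAI2 and EPCAM were also called under vorinostat, and both values moved when replicates 1 were left out. SNAI2 was 2.37, 0.809 and 0.810 FPKM in EGFR-low and 10.2, 2.26 and 4.16 FPKM in EGFR-high cells, which overlapped only through EGFR-low replicate 1. Its log2 fold change was -1.36 (limma adjusted p = 0.00872), -0.88 without EGFR-high vorinostat replicate 1 (adjusted p = 0.0218) and -1.18 without both replicates 1. EPCAM was 282, 252 and 238 FPKM in EGFR-low and 175, 194 and 181 FPKM in EGFR-high cells, without overlap (log2 fold change 0.48, adjusted p = 0.00831). This call was lost without both replicates 1 (0.38, adjusted p = 0.0579) and with median-of-ratios scaling (0.31, adjusted p = 0.0518).

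VIM under vorinostat was 20.1, 10.1 and 13.0 FPKM in EGFR-low and 25.6, 1.64 and 2.24 FPKM in EGFR-high cells. Replicate 1 was the highest library of both groups. With all libraries VIM was not called (log2 fold change 1.28, 95% interval -0.45 to 3.01, limma adjusted p = 0.184). Without EGFR-high vorinostat replicate 1 the log2 fold change was 2.34 (adjusted p = 0.00468), and without both replicates 1 it was 2.09 (adjusted p = 0.0164). Across the vorinostat experiment, VIM was therefore 8.18 to 20.1 FPKM in EGFR-low cells and 1.64 to 2.70 FPKM in 4 of the 6 EGFR-high libraries, the 2 others being the libraries already set apart.

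**Figure D3:**
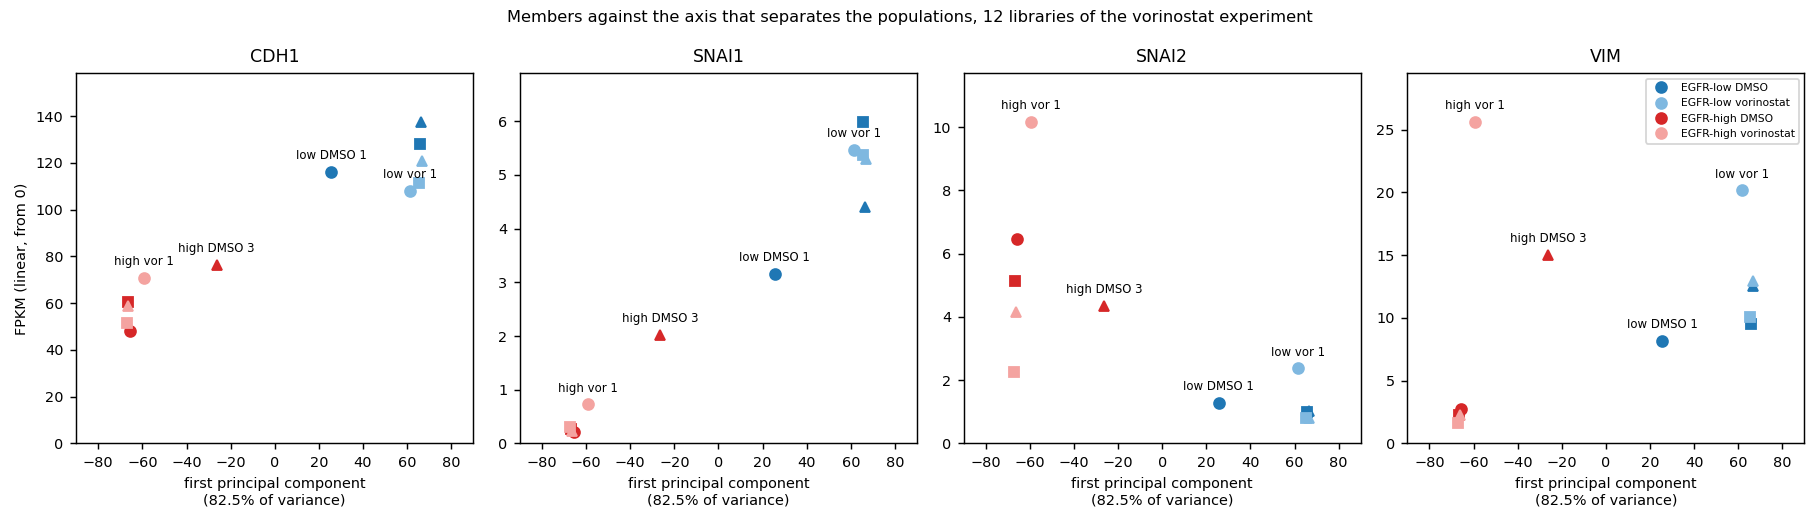
FPKM (linear, from 0) of CDH1, SNAI1, SNAI2 and VIM against the position on the first principal component, in the 12 libraries of the vorinostat experiment (one point each, colour gives the group, shape the replicate). EGFR-low DMSO replicate 1 and EGFR-high DMSO replicate 3 lie at 25.6 and -26.3 on the axis, and the second has the highest SNAI1 of the EGFR-high libraries (2.02 FPKM). The highest VIM and SNAI2 values are those of EGFR-high vorinostat replicate 1 (25.6 and 10.2 FPKM).

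The remaining transcription factors stayed low under vorinostat. TWIST1 was listed at 0 in all 3 EGFR-low vorinostat libraries and was 0.282, 0.300 and 0.327 FPKM in EGFR-high vorinostat libraries (exact permutation p = 0.1, called by limma without the filter with a log2 fold change of -0.38 and an adjusted p of 0.00027). That fit called 46.3% of its genes. ZEB2 was 0.0174 to 0.0431 FPKM in EGFR-low and 0.0516 to 0.0833 FPKM in EGFR-high cells, the opposite order to untreated cells, with all EGFR-low libraries below (exact permutation p = 0.1) but not called without the filter (adjusted p = 0.760). In DMSO the ZEB2 groups overlapped, and the highest library of each, 0.292 FPKM in EGFR-low replicate 1 and 0.430 FPKM in EGFR-high replicate 3, was the one that lay between the populations. ZEB1 overlapped between the populations in DMSO and in vorinostat, at 0.0558 to 0.234 FPKM in all 12 libraries.

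Vorinostat against DMSO gave no call for any member in either population. Of the 3 treated libraries of each population, replicates 2 and 3 lay close to the DMSO libraries and replicate 1 apart, as given above, and whether every library carries its right treatment label was not tested. In EGFR-low cells the log2 fold changes were -0.17 for CDH1 (95% interval -0.53 to 0.20), 0.24 for SNAI1 (-0.45 to 0.93), 0.09 for SNAI2 (-0.74 to 0.91) and 0.44 for VIM (-1.29 to 2.17). In EGFR-high cells they were -0.02 for CDH1 (-0.38 to 0.35), -0.25 for SNAI1 (-0.94 to 0.44), -0.13 for SNAI2 (-0.96 to 0.70) and 0.08 for VIM (-1.65 to 1.81). EPCAM and ESRP1 changed by 0.03 and -0.04 in EGFR-low cells and by -0.19 and -0.18 in EGFR-high cells. These intervals are narrow for CDH1 and EPCAM and wide for VIM.

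No gene of the 12236 was called in these comparisons by limma (0% in each), while 115 genes in EGFR-low and 409 in EGFR-high cells had an unadjusted p under 0.05, of which 0 were members. Both counts lie below what a threshold of 0.05 lets pass by chance among 12236 genes. Without the filter, 1 gene was called in EGFR-low cells and 0 in EGFR-high cells. The difference of the vorinostat effect between the populations was not called for any member either (0% of all genes, 215 at an unadjusted p under 0.05), with values of -0.15 for CDH1 (95% interval -0.66 to 0.36) and 0.49 for SNAI1 (-0.49 to 1.46). Below the filter, ZEB1 was 0.126, 0.182 and 0.160 FPKM in EGFR-high DMSO and 0.0558, 0.111 and 0.110 FPKM in EGFR-high vorinostat libraries, the 1 member of 10 whose DMSO and vorinostat libraries did not overlap (exact permutation p = 0.1). Among the genes tested, 5.33% did not overlap in this comparison and 9.46% in that of EGFR-low cells.

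The genes whose pattern was most like that of a called member were found by the root mean square difference of centred log2(FPKM + 1) over the 12 libraries of the vorinostat experiment. For CDH1 they were ZNF613 (0.089), DENND5A (0.103) and SNX27 (0.104). For SNAI1 they were IFITM10 (0.060), ZNF788 (0.112) and MAPT (0.125). For SNAI2 the nearest genes, PTGER4 (0.260), SLC25A27 (0.271) and STK33 (0.279), were farther away. For comparison, the SD of the member itself over these libraries was 0.55 for CDH1, 1.09 for SNAI1 and 0.90 for SNAI2.

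Beyond the 10 genes, the main fit, without the replicate block, called FN1, TAGLN and SOX4 higher in untreated EGFR-low than EGFR-high cells and no other epithelial gene. With the block limma also called FN1 (adjusted p = 0.00038), TAGLN (0.00275) and SOX4 (0.00357). The list counts that follow are those of the main fit, and those with the block are not given. Of 33 other epithelial genes tested, 0 were called in either direction (median log2 fold change -0.13, all genes -0.03). Of 15 other mesenchymal genes tested, 2 were called higher and 0 lower (13.3% of the list, 3.81% of all genes), with a median of 0.60. These were FN1, the matrix protein fibronectin, at 22.2 to 78.3 against 3.94 to 8.50 FPKM (log2 fold change 2.78, limma adjusted p = 0.0127), and TAGLN, an actin-binding protein of smooth muscle, at 5.59 to 20.0 against 0.600 to 1.96 FPKM (2.62, adjusted p = 0.0047). TAGLN passed the filter on low values only with its EGFR-low libraries. Too few parental (0.355 to 1.40 FPKM) and EGFR-high libraries reached 1 FPKM. A difference was thus part of what let TAGLN in, so the share called is not read as a result about the list. The FN1 call was lost without EGFR-low replicate 1 (adjusted p = 0.0627), EGFR-low replicate 3 (0.0577) or EGFR-high replicate 2 (0.0533).

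Among 9 other EMT transcription factors tested in untreated cells, SOX4 was called higher in EGFR-low cells (log2 fold change 1.44, limma adjusted p = 0.0198) and 0 were lower. The SOX4 call was lost when EGFR-low replicate 1 or 3 or EGFR-high replicate 2 or 3 was left out (adjusted p 0.0533 to 0.0954). Of 7 cadherins and cadherin partners 0 were called. The same 3 genes were called higher over parental cells, where TAGLN had a log2 fold change of 2.78, FN1 of 2.59 and SOX4 of 1.63, and 0 genes of these lists were called between EGFR-high and parental cells. Over parental cells the FN1 call was lost without EGFR-low replicate 1 or 3 or any 1 parental library (adjusted p 0.0531 to 0.157), and the SOX4 call without EGFR-low replicate 1 or 3 or parental replicate 1 (0.0661 to 0.0995).

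In DMSO the same lists split in both directions. In the vorinostat experiment some listed genes passed the filter mainly through libraries of a single population. Among them were SPARC (EGFR-low) and KLF8, TCF4 and CDH13 (EGFR-high). A difference was part of what let such genes in, so the shares called are not read as a result about the lists. Of 33 other epithelial genes 9 were called higher and 12 lower in EGFR-low cells (63.6% of the list, 51.8% of all genes). CLDN3, a tight junction claudin (log2 fold change 1.70), and ELF3, an epithelial ETS factor (1.49), led the higher ones. EHF, another epithelial ETS factor, fell from 53.4 to 73.0 FPKM in EGFR-high to 0.956 to 15.9 FPKM in EGFR-low cells (-3.93), and RAB25, an epithelial trafficking GTPase, fell by 2.47 on the log2 scale. Of the 6 identity markers, KRT8 (-1.46), KRT19 (-1.31) and KRT18 (-0.94) were called lower and CLDN4 (0.98) higher, and KRT7 (-0.15, adjusted p = 0.383) and MUC1 were not called. The summed identity markers were 1489 to 1699 FPKM in EGFR-low and 2503 to 3146 FPKM in EGFR-high DMSO libraries.

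Of 17 other mesenchymal genes tested in DMSO, 7 were called higher and 6 lower (76.5% of the list, median log2 fold change 0.05). SPARC, a matricellular protein (2.98), and TNC, tenascin C (2.73), were the highest. AXL, a receptor tyrosine kinase (-4.07), and S100A4, a calcium-binding protein of motile cells (-2.46), were the lowest. TNC lost its call without EGFR-high DMSO replicate 1 (adjusted p = 0.0507) or replicate 2 (0.0537). FN1 was called higher (2.04, adjusted p = 0.0231) and TAGLN lower (-0.76, adjusted p = 0.00753). The FN1 call was lost when any of 4 of the 6 libraries was left out, EGFR-low replicate 2 or 3 or EGFR-high replicate 1 or 2 (adjusted p 0.0634 to 0.0872).

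Of 9 other EMT transcription factors tested, 1 was called higher in EGFR-low DMSO cells (SOX4, 1.87) and 5 lower (median -1.22, all genes 0.12). KLF8 (-2.76), HMGA2 (-2.37) and TCF4 (-2.24) had the lowest values on this scale. TCF4 was 0.00475 to 1.91 FPKM in EGFR-low and 5.35 to 7.18 FPKM in EGFR-high cells, and HMGA2 was 6.01 to 16.1 against 45.7 to 51.8 FPKM. With a pseudocount of 0.1 the values were -4.84 for KLF8, -4.13 for TCF4 and -2.5 for HMGA2, so that the order of the last pair depended on the pseudocount. Of 8 cadherins and cadherin partners, 3 were called higher and 1 lower, 50% of the list against 51.8% of all genes. CDH3, P-cadherin, was 196 to 288 FPKM in EGFR-low against 44.9 to 120 FPKM in EGFR-high cells (log2 fold change 1.85), and CTNNA1, the alpha-catenin that links cadherins to actin, had a log2 fold change of 2.16, while CDH13, at 0 to 0.564 against 1.26 to 1.97 FPKM, fell by 1.11 on the log2 scale and by 3.08 with a pseudocount of 0.1. Without the libraries between the populations the log2 fold changes were 4.18 for SPARC, 3.76 for TNC, -5.27 for AXL and -5.05 for EHF. The counts then were 9 and 12 for epithelial, 8 and 6 for mesenchymal, 2 and 5 for transcription factor and 3 and 1 for cadherin genes. With median-of-ratios scaling 4 in place of 7 mesenchymal genes were called higher, in DMSO as under vorinostat.

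Under vorinostat, where 59.0% of all genes were called, the lists again split. Of 33 epithelial genes 9 were called higher and 13 lower (66.7% of the list), of 17 mesenchymal genes 7 and 6 (76.5%), of 9 EMT transcription factors 2 and 5 (77.8%), and of 8 cadherin genes 4 and 1 (62.5%). Among the largest values of the lists were CLDN3 (2.31), PKP3, a desmosomal plakophilin (1.94), SPARC (3.46), TGFBI (3.07), SOX4 (1.79), CTNNA1 (2.5) and CDH3 (2.01) on the higher side. EHF (-5.38), RAB25 (-3.45), AXL (-4.47), S100A4 (-3.76), KLF8 (-3.38), TCF4 (-2.89) and CDH13 (-1.11) were the lowest of their lists, at most 2 for each. CDH13 was listed at 0 in all 3 EGFR-low vorinostat libraries and was 0.799 to 1.85 FPKM in the EGFR-high vorinostat libraries. These counts were the same without both replicates 1, and 0 genes of any of these lists were called for vorinostat against DMSO.

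**Figure D4:**
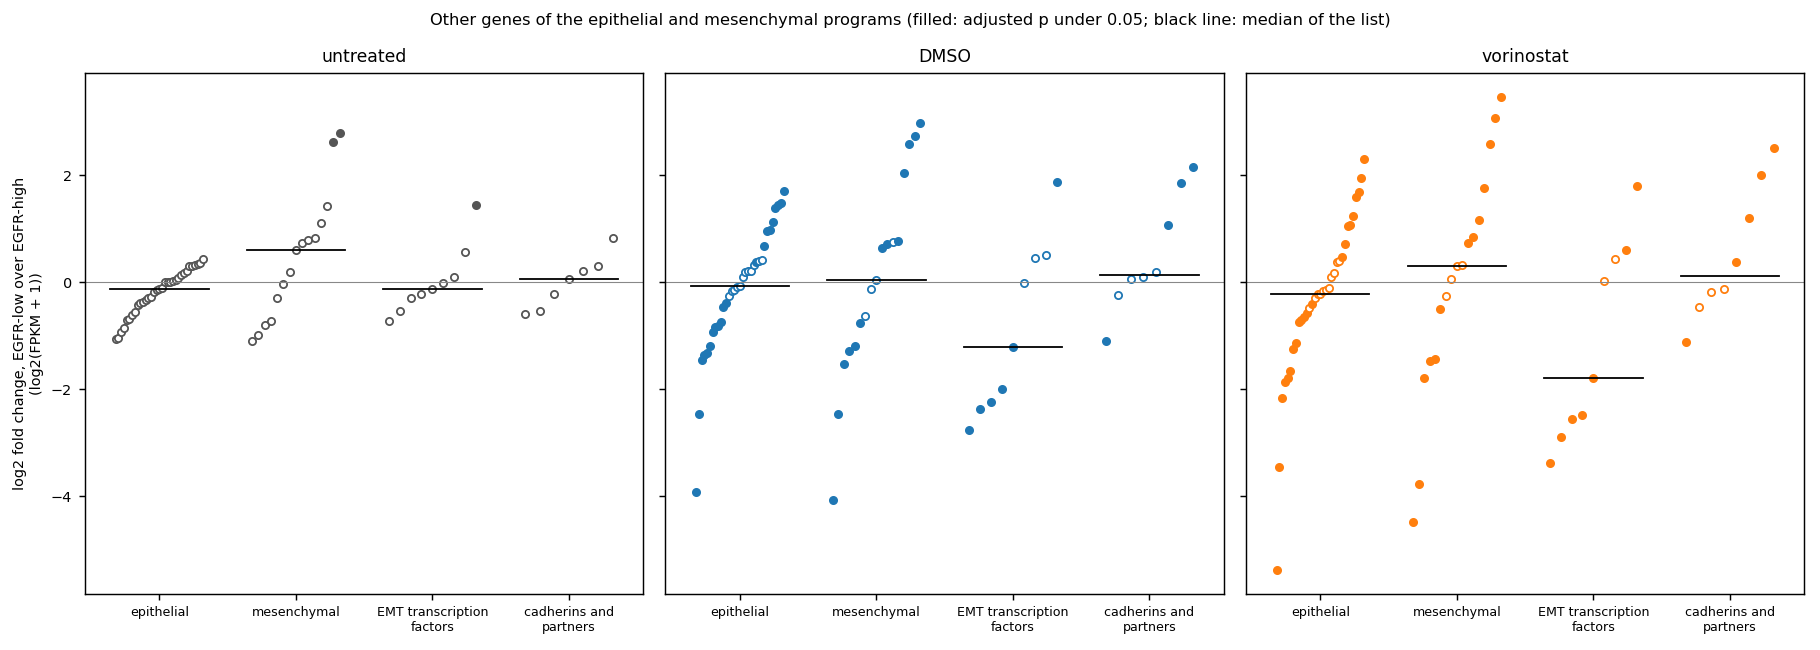
Log2 fold change of EGFR-low over EGFR-high cells (log2(FPKM + 1) scale) for the tested genes of 4 lists in untreated, DMSO and vorinostat cells, one point per gene, sorted within its list, filled where the limma adjusted p was under 0.05, with the list median as a black line. In untreated cells 3 points are filled (FN1, TAGLN and SOX4), whereas in DMSO and vorinostat cells filled points lie on both sides of 0 in every list.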

How the data were processed

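The starting point was the gene-level values of PC-9 libraries that the authors deposited, one table per experiment. The submitters' processing notes name STAR 2.5.1b, Cufflinks 2.2.1 and DESeq2 1.10.1, run by the authors, and hg19, with no role or order. The deposited values were read as FPKM, which the authors scaled to transcript length and library, although their naming calls them counts, because they are not whole numbers and each library sums to 467897 to 592942. Depth is unknown, no counting interval can be given, and a value of 0 is called listed at 0. Whether strand was used in counting is not given in the sources used here, so reads of VIM, ZEB1 and ZEB2 cannot be told apart from those of antisense genes that overlap them.

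Genes that reached 1 FPKM in 3 or more libraries (11305 in the untreated and 12236 in the vorinostat experiment) were tested on log2(FPKM + 1) by limma 3.58.1 (lmFit and eBayes with trend, R 4.3.3), one mean per group, no replicate block, all groups of an experiment together, and Benjamini-Hochberg adjustment within each comparison at 0.05. Tests are two-sided. Members under the filter were compared by an exact permutation test, whose smallest p is 0.1 for 3 against 3. The study calls its replicates independent experiments. Same-numbered libraries were taken as paired where each of the 3 correlations of their deviations from the group means passed 0.1. This held for untreated EGFR-low and EGFR-high cells (0.343, 0.730, 0.689), for the populations under vorinostat (0.353, 0.351, 0.163) and for vorinostat against DMSO in EGFR-low cells (0.267, 0.302, 0.329). The fit was tested on made-up data with known answers. With the spread of the untreated experiment it found 74.7% of log2 changes of 2 and 21.8% of those of 1, with 11 false calls. With that of the vorinostat experiment it found 91.5% and 66.0%, with 5 false calls. A log2 change near 1 that was not called in untreated cells is therefore not shown to be absent.

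The members, the lists and the alternatives were chosen with earlier results of these data known. The text names every member in each comparison and, from each other list, up to 2 called genes with the largest change per direction, and FN1 and TAGLN in DMSO cells, TCF4 in DMSO cells and the other-lineage and keratin markers were named after their values were seen. The values of 1 gene that this rule names are not reported here. Alternatives were a pseudocount of 0.1, no filter, median-of-ratios scaling, quantile normalization, the replicate block and each library left out. Leaving out the libraries that stood apart was added after the data were seen. Descriptions used pandas 2.3.3 and scipy 1.17.1 under Python 3.11.15, and figures matplotlib 3.10.9.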

Additional observations from a re-analysis of the deposited data

Results flagged for a closer look

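Among the members and the other genes named, 3 had EGFR-low libraries all on one side of the EGFR-high libraries in untreated cells and all on the opposite side in DMSO. Among all genes tested, no overlap in one or the other direction was found for 20.6% in untreated cells and 69.3% in DMSO. The share of all genes with opposite directions was not counted. Most of the genes searched had been named for their large changes, so the count says nothing particular about them. The difference between the experiments was not tested, since they were normalized separately. TAGLN had a log2 difference of 2.62 in untreated cells and -0.76 in DMSO, where EGFR-low libraries held 0.518 to 0.714 FPKM and EGFR-high libraries 1.20 to 2.28 FPKM. CLDN3 had -1.05 in untreated cells (0.700 to 1.25 against 1.41 to 5.01 FPKM) and 1.70 in DMSO (17.3 to 22.1 against 4.37 to 7.73 FPKM). CDH3 had -0.59 in untreated cells (23.6 to 41.0 against 42.7 to 65.5 FPKM) and 1.85 in DMSO. The untreated differences of CLDN3 and CDH3 were not called. Both libraries between the populations are part of the DMSO values.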

How the results depend on the processing

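No member that was called changed direction under any alternative. The number of members called between the 2 sorted populations when untreated was 0 and became 1 without the filter on low values (ZEB2) and 1 with the replicate block (VIM, adjusted p = 0.0336). The block changed no other call of a member. Over all genes it raised the calls there from 431 to 965, and between EGFR-low and parental cells from 181 to 525 (331 without the filter). Without the filter 660 genes were called between the untreated populations. Leaving out single libraries gave 205 to 337, 67 to 252 and, between EGFR-high and parental cells, 2 to 8 calls in place of 8, which no filter raised to 15. In the vorinostat experiment no setting moved the calls over all genes by over 1.5 times where any were made.

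Sign changes were limited to members that were not called, and the cause was not tested. With median-of-ratios scaling CDH1 had -0.055 between EGFR-high and parental cells and 0.041 between vorinostat and DMSO in EGFR-high cells (0.029 with quantile normalization). Without both DMSO libraries between the populations, CDH1 had 0.15 and SNAI1 0.18 for vorinostat against DMSO in EGFR-high cells, and the difference of the vorinostat effect was -0.51 for VIM and -0.13 for SNAI1. Without both vorinostat replicates 1, SNAI2 had -0.21 and EPCAM -0.040 in EGFR-low cells, VIM -0.98 and ESRP1 0.023 in EGFR-high cells, and the difference of the vorinostat effect was 0.00384 for CDH1 and -0.070 for ESRP1. Leaving out single libraries gave ranges across 0 for SNAI2 between the untreated populations (-0.15 to 0.26), ESRP1 between EGFR-low and parental cells (-0.43 to 0.26), CDH1 (-0.11 to 0.18) and ESRP1 (-0.67 to 0.022) between EGFR-high and parental cells, and ESRP1 between the vorinostat-treated populations (-0.36 to 0.068). For vorinostat against DMSO they were -0.21 to 0.24 for SNAI2, -0.040 to 0.081 for EPCAM and -0.079 to 0.000977 for ESRP1 in EGFR-low cells, and -0.18 to 0.15 for CDH1, -0.98 to 0.82 for VIM, -0.48 to 0.18 for SNAI1, -0.61 to 0.28 for SNAI2 and -0.40 to 0.023 for ESRP1 in EGFR-high cells. For the difference of the vorinostat effect they were -0.32 to 0.015 for CDH1, -0.38 to 1.42 for VIM, -0.19 to 0.70 for SNAI2 and -0.065 to 0.36 for ESRP1. With 3 libraries per group and unknown depth, differences in members near 0 FPKM are not resolved.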
